A study of Mus musculus with 39 samples.

Results

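The hypothalamus of PianpKO mice was compared with that of control mice on 10 of the 39 arrays of this series, which were chosen by their region and genotype labels alone. The study asked what the loss of *Pianp* does to gene expression in the brain, and it also profiled amygdala, cortex and hippocampus, mostly under the same animal numbers. PianpKO mice (5 hypothalamus arrays) carried a constitutive deletion: Pianptm1a(KOMP)Wtsi mice, made from C57BL/6N-Atm1Brd embryonic stem cells, had been bred with the FLP line B6N.Cg-Tg(ACTFLPe)9205Dym/CjDswJ to give *Pianp* floxed mice, and these in turn with the CMV-driven Cre line B6.C-Tg(CMV-cre)1Cgn/J. Control mice (5 hypothalamus arrays) were the *Pianp* floxed mice, so both groups carry the modified *Pianp* allele and FLP-line ancestry, while only the PianpKO mice have Cre-line ancestry. All mice were male and had been used in no other experiment. The methods give an age range of 8 to 48 weeks over all mice of the study, and ages of single mice were not given in the sources used here. Each array held the RNA of 1 biological replicate, whose region had been punched out of coronally cut brain.

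*Pianp* encodes a membrane protein of neurons that binds the immune receptor PILRα and the GABAB receptor, the slow metabotropic receptor for the inhibitory transmitter GABA. The hypothalamus is a mosaic of small nuclei, many of which are defined by a neuropeptide. Vasopressin and oxytocin neurons lie in the paraventricular and supraoptic nuclei, and melanin-concentrating hormone and orexin neurons in its lateral part. The striatum, the thalamus and the pituitary stalk lie next to it.

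Values are log2 normalized signal, and a difference is the PianpKO mean minus the control mean on that scale, fitted with limma and adjusted by the Benjamini-Hochberg method over all 25429 probe sets (1 per gene). *Pianp* was the 1 gene that passed an adjusted p of 0.05, which is 0.00393% of the probe sets. The PianpKO arrays had 5.98, 5.48, 5.75, 5.85 and 5.88 for *Pianp*, against 7.51, 7.86, 8.06, 7.96 and 7.74 in control arrays. The groups were far apart, with means of 5.79 ± 0.19 in PianpKO and 7.82 ± 0.21 in control mice (SD, n = 5 each). *Pianp* fell by 2.04 (SE 0.12, 95% interval -2.29 to -1.79, limma adjusted p = 2.51e-05), a signal ratio of 0.243. The two-sided exact permutation test gave p = 0.00794, the smallest that 5 against 5 arrays allow. Which of its probes lie in the deleted exons was not given in any source used, so the signal left in PianpKO arrays cannot be read as transcript or background. Of 61 measured genes within 1 Mb of *Pianp* on chromosome 6, 1 was higher and 0 were lower at an unadjusted p under 0.05. Over all probe sets, 2.74% were higher and 2.81% lower at that p. The median difference of the 61 was 0.01. Many of them had means under the array median of 4.62, such as *Gapdh* (3.29 in PianpKO, 3.27 in control), so a change there could be missed.

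Most other differences were small. The median difference over all probe sets was 0.00, the lower and upper 5% began at -0.18 and 0.19, and the median SE was 0.08. The thresholds of the study were an absolute log2 difference above 0.7 and a p under 0.001, which was taken here as unadjusted. At these thresholds there were 3 genes (0.0118%): *Gm26843* higher (0.00393%), and *Pianp* and *Erdr1* lower (0.00787%). An absolute difference above 0.7 was reached by 14 probe sets, of which these 3 had the small p. By the p alone, 29 genes lay under 0.001 (0.114%), 12 higher (0.0472%) and 17 lower (0.0669%), and 28 of the 29 had no overlap between the groups, which held for 238 probe sets in all (0.936%). These 29 were selected on this contrast, so their separation is a description. The count of 29 was 17 without PianpKO replicate 4 and 48 without control replicate 5.

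**Figure D1:**
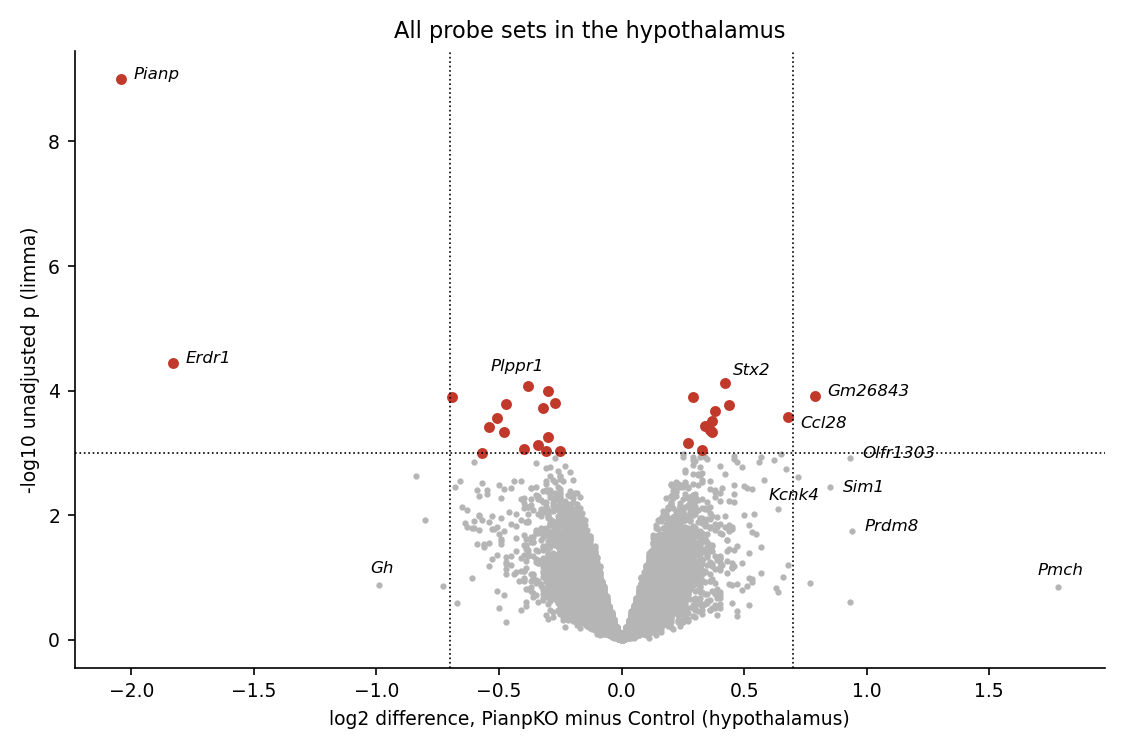
The log2 difference in the hypothalamus (PianpKO minus control, horizontal) against -log10 of the unadjusted limma p (vertical) for each probe set, with the 29 genes at p under 0.001 in red and dotted lines at the study's thresholds. *Pianp* and *Erdr1* lie far to the left, and genes with large differences but large spread, such as *Pmch* (1.78) and *Gh* (-0.99), lie low in the plot.

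Among the 10 arrays, PianpKO arrays correlated with each other at 0.994 to 0.996 and control arrays at 0.989 to 0.995. Control replicates 1 and 4 had the lowest mean correlations with the other 9 arrays (0.9912 and 0.9919, against 0.9934 to 0.9946 for the rest). With control replicates 2, 3 and 5 alone, an alternative added after the data were seen, 21 genes had an unadjusted p under 0.001, 14 of them among the 29. The region label was checked with 76 measured hypothalamic genes: the median over hypothalamus arrays was above that of the 29 arrays of other regions for 57, by more than 1 for 16. For only 2 of the 76, the lowest hypothalamus array was above the highest array of the other regions. *Avp* ran from 11.46 to 12.81 in the hypothalamus, with a median of 6.79 elsewhere but a highest array of 12.45. Its amygdala means were 11.22 in PianpKO and 10.25 in control mice, so *Avp* did not separate the hypothalamus from every other array. *Fezf1*, among the nucleus markers, had a higher median in the hypothalamus (6.98) than in the other arrays (4.38, highest array 7.51). *Nr5a1*, which defines the ventromedial nucleus, was not higher in the hypothalamus (median 4.10) than in the other arrays (median 4.20). Neither was *Rax* (4.06 and 4.22). The files hold no detection calls, so such a value cannot be told apart from background.

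After *Pianp*, the gene with the smallest p was *Erdr1*, erythroid differentiation regulator 1, which lies in the pseudoautosomal region of the sex chromosomes and is annotated as a transcribed pseudogene in the RefSeq table used here. It had 9.42, 8.39, 9.60, 9.58 and 9.57 in PianpKO arrays, against 11.27, 10.88, 10.42, 11.88 and 11.26 in control arrays. All PianpKO arrays were below all control arrays, and PianpKO replicate 2 was the lowest. The difference of -1.83 (SE 0.28) had a limma adjusted p of 0.39 within the hypothalamus, and of 0.00768 in a fit over all 8 groups of the series and 0.000739 in the same fit with the mouse as a random block, where the spread is estimated from all 39 arrays. In the amygdala, cortex and hippocampus the differences were -1.74, -1.78 and -1.77. *Erdr1*, *Ccl28*, *Avp* and *Scn4b* were singled out by the study on these arrays, so their array values here are not independent evidence. Besides the arrays, the paper measured *Erdr1*, *Avp* and *Scn4b* by qRT-PCR. It reports significantly lower *Erdr1* by qRT-PCR in all 4 regions, and weaker *Erdr1* signal in PianpKO brain by in situ hybridization. *Asmt* and *Mid1*, other genes at or next to the pseudoautosomal region, had differences of 0.26 and -0.21, so no common direction was seen among the 6 measured.

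*Ccl28*, a chemokine of mucosal epithelia, had 5.08, 5.06, 5.16, 4.53 and 4.60 in PianpKO arrays, against 4.44, 4.13, 4.26, 4.03 and 4.20 in control arrays. The groups did not overlap, though PianpKO replicates 4 and 5 were close to control replicate 1. Its difference was 0.68 (SE 0.13, limma adjusted p = 0.463), and 0.93, 0.90 and 0.78 in amygdala, cortex and hippocampus. The long noncoding RNA *Gm26843* had 5.90, 5.88, 5.89, 5.88 and 6.22 in PianpKO arrays, against 5.32, 5.27, 5.55, 4.89 and 4.76 in control arrays. This gave a difference of 0.79 (SE 0.14, limma adjusted p = 0.39), which was 0.69 and under the study's threshold without control replicate 5. In the other regions *Gm26843* had differences of -0.08 (amygdala), 0.42 (cortex) and 0.47 (hippocampus), with SDs of up to 1.07 in the amygdala of PianpKO mice.

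**Figure D2:**
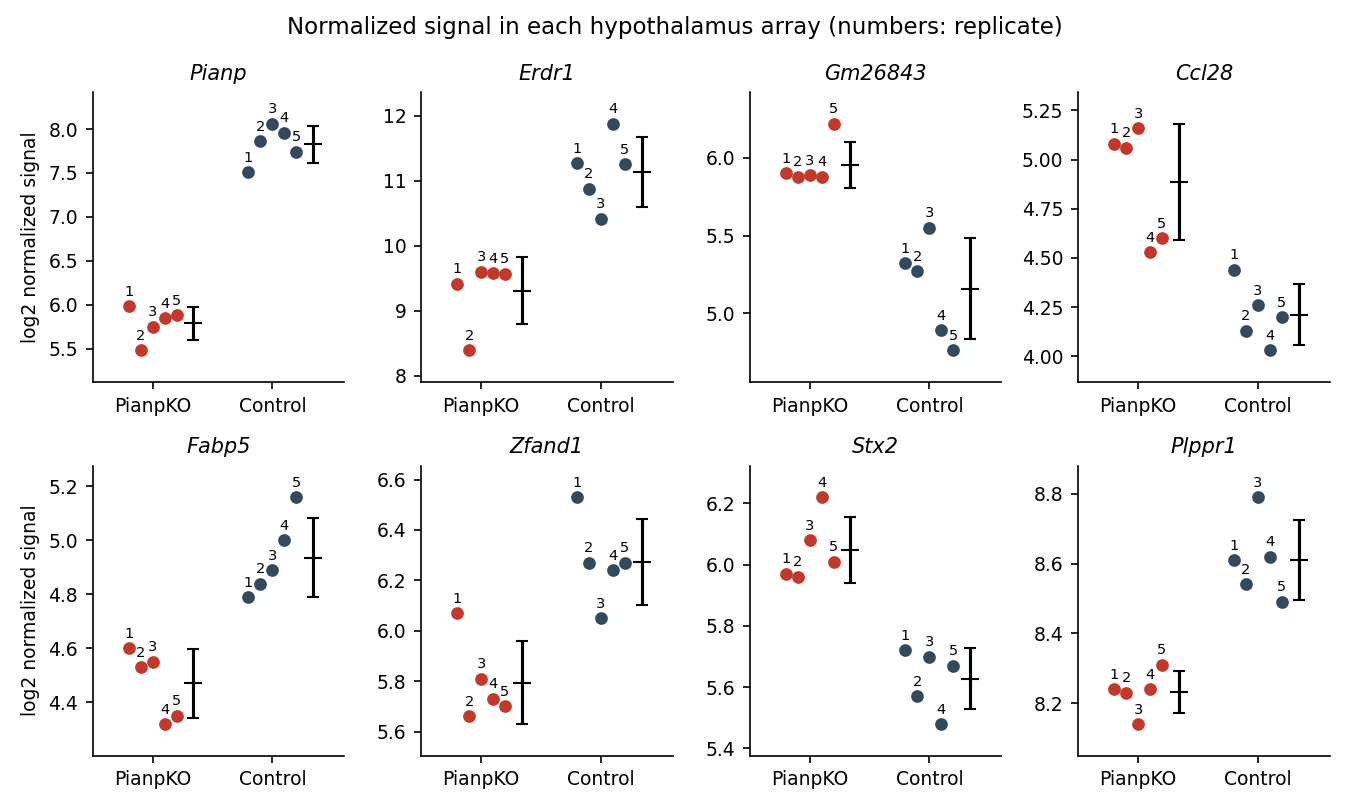
Log2 normalized signal (vertical) of 8 genes in each PianpKO and control hypothalamus array; points are arrays labelled by replicate, and the bar beside them is the mean ± SD (n = 5 each). The groups are separate for each gene except *Zfand1*, where PianpKO replicate 1 (6.07) lies above control replicate 3 (6.05).

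The other genes at an unadjusted p under 0.001 had differences of 0.25 to 0.69 in size and limma adjusted p-values of 0.39 to 0.764. *Stx2*, a syntaxin of vesicle fusion, ran from 5.96 to 6.22 in PianpKO arrays (median 6.01), against 5.48 to 5.72 in control arrays (median 5.67), a difference of 0.42 (SE 0.07). *Tbc1d1* and *Tbc1d10a*, GTPase activators of Rab proteins, were higher by 0.29 and 0.37, and *Ldlrad3*, a receptor of the LDL receptor class, by 0.36. *Plppr1*, a phospholipid phosphatase-related protein of growing neurites, had 8.24, 8.23, 8.14, 8.24 and 8.31 in PianpKO arrays, against 8.61, 8.54, 8.79, 8.62 and 8.49 in control arrays. Its difference was -0.38 (SE 0.06). *Mctp1*, a calcium-binding membrane protein with C2 domains, and *Lgi2*, a secreted protein of the LGI family of synaptic proteins, were lower by differences of -0.51 and -0.32. *Lgi2* had 8.49 ± 0.08 in PianpKO and 8.81 ± 0.07 in control hypothalamus (SD, n = 5 each), and differences of -0.54, -0.23 and -0.43 in amygdala, cortex and hippocampus.

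The transcription factor genes in this set were *Uncx*, a homeobox factor (difference 0.44, SE 0.08), *Mafk*, a small Maf protein (0.34), *Gsx1*, a homeobox factor required for growth hormone-releasing hormone neurons (0.27), the zinc finger gene *Zfp605* (-0.30), and *Rarb*, a retinoic acid receptor of striatal neurons (-0.57). *Uncx* had 5.02, 5.23, 5.17, 5.25 and 5.17 in PianpKO arrays, against 4.53, 4.58, 4.76, 4.82 and 4.92 in control arrays. The groups did not overlap, and PianpKO replicate 1 and control replicate 5 were nearest to each other. *Ifna5*, one of a family of near-identical interferon genes whose probes may share transcripts, had a difference of -0.54, and *Ddx4*, a helicase of germ cells, of -0.31. The enzymes *Pde1b* (-0.34), a calcium-dependent phosphodiesterase, and *Cpped1* (-0.27), a phosphatase, were lower, as were the lncRNAs *G530011O06Rik* (-0.69) and *Gm14249* (-0.40), while *Prox1os* was higher by 0.33. Also among the 29 were *Tmem179b*, a transmembrane protein gene (0.38), *Abca8a*, a lipid transporter (-0.30), and *Commd7*, a COMM domain protein (-0.25), each without overlap between the groups. The means of *Gsx1*, *Ddx4*, *Prox1os* and *G530011O06Rik* were under the array median of 4.62 in both groups. Without detection calls, such signal cannot be told apart from background.

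Of the 29 genes, 7 are on chromosome 5, which holds 1398 of the 25429 probe sets: *Lgi2*, *Tbc1d1*, *Zfp605*, *Stx2*, *Uncx*, *Mafk* and *Gsx1*. They are spread along it, at ranks 368 to 1346 of the measured genes, and differ in direction; *Uncx* and *Mafk* are 3 ranks apart. *Fabp5*, a fatty acid-binding protein, and *Zfand1*, a zinc finger protein of stress granule clearance, are both on chromosome 3. Of the neighbors looked up, 6 lie between them, and any other genes there were not counted. *Fabp5* had 4.60, 4.53, 4.55, 4.32 and 4.35 in PianpKO arrays, against 4.79 to 5.16 (median 4.89) in control arrays. *Zfand1* had 6.07, 5.66, 5.81, 5.73 and 5.70 in PianpKO arrays, against 6.53, 6.27, 6.05, 6.24 and 6.27 in control arrays. The differences were -0.47 (SE 0.09) and -0.48 (SE 0.10). *Impa1*, an inositol monophosphatase gene between them, was also lower without overlap (-0.26, unadjusted p = 0.00355), while *Pmp2*, *Fabp9*, *Fabp4*, *Fabp12* and *Slc10a5*, also between them, had differences of -0.07 to 0.08.

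The 1 miRNA gene among the 29 was *Mir5120*, and *Mir9-1*, 1 of the genes of the neural miR-9, was the next without overlap. Mature sequences of both are given because their probe sets lead the miRNA genes; they are from RefSeq (GRCm38.p6), 5′ to 3′, with the seed (bases 2 to 8) in capitals. The array measures the gene's transcript, and the mature forms were not measured.
mmu-miR-5120 (chr4:44607536-44607558, minus strand): uUUGGGGCuguggugccaccagc
mmu-miR-9-5p (chr3:88215613-88215635, plus strand): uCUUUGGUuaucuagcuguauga
mmu-miR-9-3p (chr3:88215652-88215673, plus strand): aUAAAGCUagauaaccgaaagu
*Mir5120* had 4.67, 4.56, 4.78, 4.60 and 4.67 in PianpKO arrays, against 4.25, 4.39, 4.16, 4.46 and 4.18 in control arrays, a difference of 0.37 (SE 0.07, limma adjusted p = 0.48). *Mir9-1* had 5.55, 5.19, 5.37, 5.51 and 5.60 in PianpKO arrays, against 4.48, 4.64, 5.13, 5.02 and 5.13 in control arrays, a difference of 0.56 (SE 0.14, limma adjusted p = 0.764). The 3 sequences have 3 different seeds.

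Several neuropeptide genes had large differences with large spread. Of 35 measured hypothalamic neuropeptide genes, 1 was higher and 2 were lower at an unadjusted p under 0.05, against 2.74% higher and 2.81% lower over all probe sets, and the median was 0.05. *Avp*, the vasopressin precursor, had 11.92, 12.72, 12.38, 12.81 and 12.72 in PianpKO arrays, against 11.50, 12.16, 11.46, 11.93 and 12.29 in control arrays. Of the PianpKO arrays, 4 were above every control array, and the difference was 0.64 (SE 0.20, limma adjusted p = 0.825, exact permutation p = 0.0397). In bulk tissue, a change in the number of cells of a type and a change in RNA per cell cannot be told apart. *Avp* was 11.22 ± 1.12 in PianpKO (n = 5) and 10.25 ± 0.54 in control (n = 4) amygdala, 6.20 ± 0.44 in PianpKO and 6.57 ± 0.21 in control cortex, and 5.74 ± 0.45 in PianpKO and 7.60 ± 1.47 in control hippocampus (SD, n = 5 each). The *Avp* differences there were 0.98, -0.37 and -1.86, so cortex and hippocampus ran opposite to the hypothalamus. *Oxt*, the oxytocin precursor, averaged 9.61 ± 0.38 in PianpKO and 9.29 ± 0.44 in control arrays (SD, n = 5 each), and its highest and lowest arrays were both controls. Its difference of 0.32 (SE 0.22) was within the spread of the arrays.

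*Pmch*, the precursor of melanin-concentrating hormone, had the largest positive difference of all probe sets, 1.78 (SE 1.13, limma adjusted p = 0.895). The PianpKO arrays had 7.58, 10.83, 4.21, 8.82 and 4.31, against 6.35, 5.48, 4.07, 4.75 and 6.21 in control arrays. PianpKO replicates 1, 2 and 4 were above every control array and replicates 3 and 5 at the level of the lowest. The difference was 0.86 without PianpKO replicate 2 and 2.52 without PianpKO replicate 3. *Hcrt*, the orexin precursor, was at 6.65 and 5.29 in PianpKO replicates 2 and 4, at 3.91, 3.71 and 4.07 in the other PianpKO arrays, and at 3.79 to 4.04 in control arrays. Both peptides mark the lateral hypothalamus and were highest in the same 2 of the hypothalamus arrays. Neither had a higher median in the hypothalamus (*Pmch* 5.84, *Hcrt* 3.98) than in the arrays of other regions (6.48 and 4.12). *Pmch* means in PianpKO and control mice were 9.32 and 8.37 in amygdala, 4.13 and 4.10 in cortex, and 7.48 and 6.96 in hippocampus. The part of lateral hypothalamus in each punch was not tested.

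*Tac1*, the substance P precursor, had 7.69, 7.37, 7.32, 7.29 and 7.43 in PianpKO arrays, against 7.95, 7.84, 8.37, 7.66 and 7.66 in control arrays, a difference of -0.48 (SE 0.13, limma adjusted p = 0.801). *Gnrh1*, the gonadotropin-releasing hormone gene, averaged 3.95 ± 0.18 in PianpKO and 4.29 ± 0.20 in control mice (SD, n = 5 each), with a difference of -0.34. *Cck* had a difference of 0.66 (limma adjusted p = 0.878), with 9.91 to 10.18 in PianpKO arrays, against 7.87 in control replicate 1, 9.03 in control replicate 3 and 9.81 to 10.16 in the other control arrays.

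**Figure D3:**
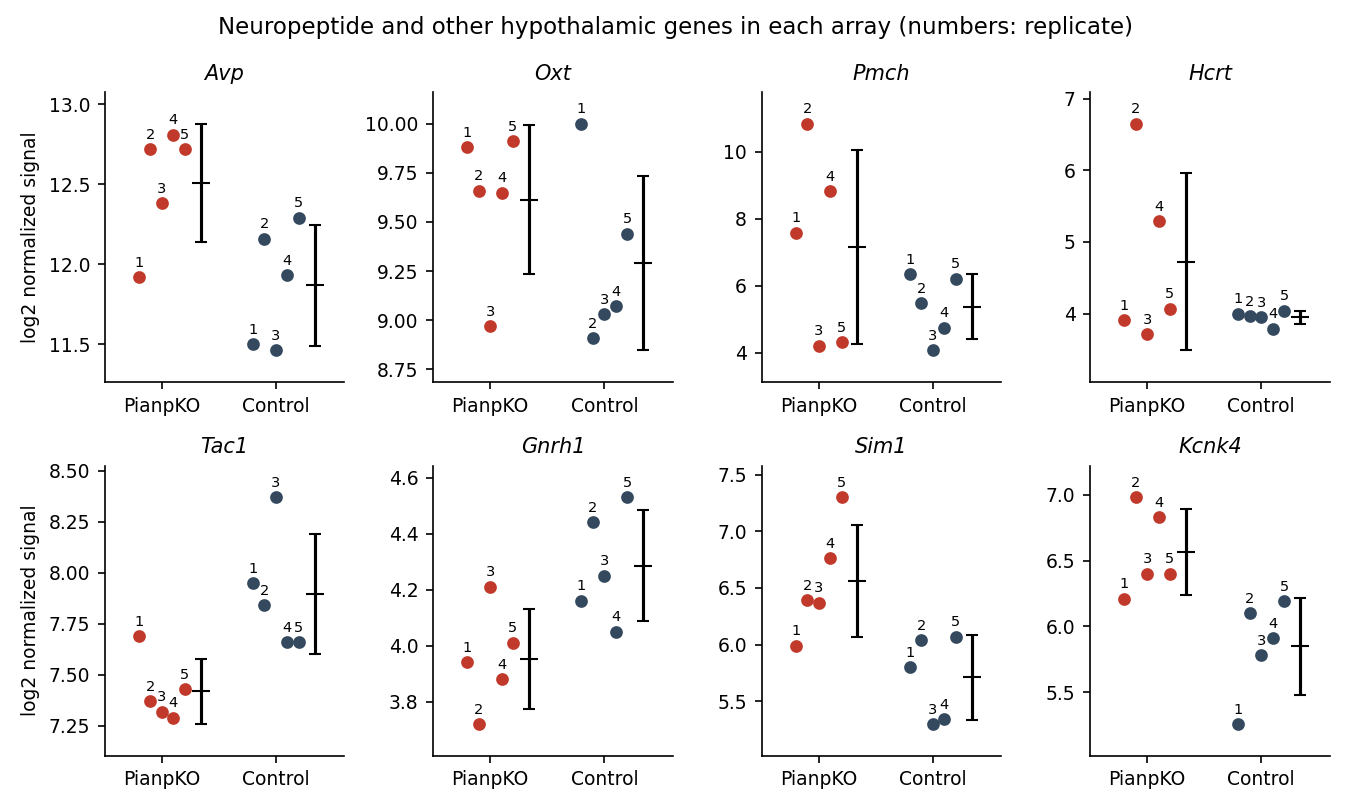
Log2 normalized signal (vertical) of 6 neuropeptide genes, the transcription factor gene *Sim1* and the potassium channel gene *Kcnk4* in each PianpKO and control hypothalamus array; points are arrays labelled by replicate, with the mean ± SD (n = 5 each) beside them. *Pmch* and *Hcrt* are high in PianpKO replicates 2 and 4, and only *Kcnk4* has no overlap between the groups.

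Of 41 measured transcription factors and markers of hypothalamic nuclei, 2 were higher and 2 lower at an unadjusted p under 0.05 (2.74% and 2.81% of all probe sets), and the median was -0.04. *Sim1*, which paraventricular neurons require, had 5.99, 6.39, 6.37, 6.76 and 7.30 in PianpKO arrays, against 5.80, 6.04, 5.30, 5.34 and 6.07 in control arrays. Of the PianpKO arrays, 4 were above every control array, and the difference was 0.85 (SE 0.23, limma adjusted p = 0.801). It was -0.10, 0.00 and 0.14 in amygdala, cortex and hippocampus. *Sim1* means were 3.69 in both cortex groups, and 3.90 in PianpKO and 3.76 in control hippocampus, under the array median of 4.62. At such low signal, small differences do not show that *Sim1* is unchanged in cortex and hippocampus. *Hmx2* and *Dlx1* were lower, with differences of -0.23 and -0.25. Among 48 receptors of neuropeptides and hormones, the somatostatin receptors *Sstr2* (0.26) and *Sstr3* (0.32) were higher and the substance P receptor *Tacr1* (-0.28) was lower at an unadjusted p under 0.05. Clock genes gave 0 higher and 3 lower of 22 at that p, with *Bhlhe41* at -0.29 and *Per2* at -0.25, and a median of -0.01.

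The GABAB receptor and its partners showed no large difference. The 24 measured genes of the complex and of Pianp's partners and proteases had a median of 0.03. At an unadjusted p under 0.05, 1 was higher and 1 lower (2.74% and 2.81% of all probe sets). *Gabbr1*, the subunit whose long isoform binds Pianp, had 11.87, 11.82, 11.89, 11.82 and 11.80 in PianpKO arrays, against 11.86, 11.82, 11.79, 11.78 and 11.75 in control arrays. Its difference was 0.04, with a 95% interval of -0.06 to 0.15. *Gabbr2*, the subunit that couples to G proteins, had 11.05, 11.14, 11.14, 11.20 and 11.13 in PianpKO arrays, against 10.90, 10.94, 10.84, 11.13 and 11.04 in control arrays. The difference of 0.16 (SE 0.06) had an unadjusted p of 0.0274 and an adjusted p of 0.878 (limma). *Kctd12*, an auxiliary subunit, was lower by a difference of -0.14, and *Pilra*, *Adam10*, *Adam17* and *App* had differences of 0.08, -0.04, -0.06 and -0.01. Of 20 effectors (Gi and Go subunits, GIRK and calcium channels) 1, the GIRK channel gene *Kcnj9* (0.32), was higher at an unadjusted p under 0.05, and the median was 0.00.

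Two-pore potassium channels set the resting potential of neurons. Of 14 measured, 3 were higher and 0 lower at an unadjusted p under 0.05 (2.74% and 2.81% of all probe sets), with a median of 0.02. *Kcnk4*, the mechanosensitive channel TRAAK, had 6.21, 6.98, 6.40, 6.83 and 6.40 in PianpKO arrays, against 5.26, 6.10, 5.78, 5.91 and 6.19 in control arrays. The lowest PianpKO array was just above the highest control array, and the difference was 0.72 (SE 0.19, limma adjusted p = 0.801); without control replicate 1 it was 0.57, and 0.54 without control replicates 1 and 4. *Kcnk3* and *Kcnk6* had differences of 0.18 and 0.23. The actin gene *Actb*, often used as a reference transcript, had 11.32, 11.20, 11.05, 11.34 and 11.16 in PianpKO arrays, against 10.60 to 11.24 (median 10.97) in control arrays. Its difference was 0.26 (SE 0.10, limma adjusted p = 0.878, exact permutation p = 0.0397).

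Genes of striatal projection neurons were lower in PianpKO hypothalamus. Of 22 measured, 21 had a negative difference and 1 a positive one (51.2% and 48.8% of all probe sets), 14 were lower and 0 higher at an unadjusted p under 0.05 (2.81% and 2.74% of all probe sets), and the median was -0.40, against 0.00 over all probe sets. With limma, 0 passed an adjusted p of 0.05. The 2 without overlap were *Pde1b* and *Rarb*, where 0.460% of all probe sets were lower without overlap. *Rarb* had 5.22, 5.42, 5.27, 5.32 and 5.22 in PianpKO arrays, against 5.92, 5.75, 6.39, 5.60 and 5.64 in control arrays. *Drd1*, the D1 dopamine receptor, had 6.55 to 7.38 (median 6.86) in PianpKO arrays, against 7.18 to 8.39 (median 7.46) in control arrays, a difference of -0.64. *Gpr6* (-0.66), *Rgs9* (-0.58), *Bcl11b* (-0.59), *Pde10a* (-0.56) and *Scn4b* (-0.49) were lower as well, and *Drd2*, *Penk* and *Ppp1r1b* had differences of -0.47, -0.16 and -0.29 at p-values above 0.05.

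The mean over the 22 striatal genes was 7.89, 7.55, 7.55, 7.80 and 7.62 in PianpKO arrays, against 7.87, 8.09, 8.53, 8.09 and 7.81 in control arrays, so it overlapped and was highest in control replicate 3. Without that array 9 of the 22 were lower at that p and the median was -0.28; with control replicates 2, 3 and 5 alone, 14 were lower and the median was -0.53. The limma fits over all 8 groups gave 9 lower, and the methods' own test over them gave 7. In the amygdala the median was -0.42, in the cortex 0.14 and in the hippocampus -0.23. The part of neighboring striatum in these punches was not tested.

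Markers of other neighbors moved with single arrays. The mean over 16 cortical projection neuron genes was 6.54 in control replicate 1, against 7.38 to 7.77 in PianpKO arrays and 7.21 to 7.65 in the other control arrays. In that array *Slc17a7*, the vesicular glutamate transporter of cortex, was at 5.45, against 9.57 to 10.34 in PianpKO arrays and 9.08 to 10.25 in the other control arrays. *Prdm8*, a transcriptional repressor of cortical neurons, had 7.87, 8.63, 8.42, 8.38 and 8.48 in PianpKO arrays, against 6.11, 7.94, 6.93, 7.90 and 8.17 in control arrays, low in control replicates 1 and 3. The *Prdm8* difference was 0.94 (SE 0.34, limma adjusted p = 0.853), 0.62 without control replicate 1 and 0.68 without control replicates 1 and 4. The median of the cortical list was 0.17, 0.05 without control replicate 1 and 0.07 without control replicates 1 and 4. *Prdm8* and *Kcnk4* had been singled out for this region in earlier results on these arrays, so their differences are no independent evidence. The part of cortical tissue in the punches was not tested.

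The thalamic list (15 genes) had 14 positive differences (48.8% of all probe sets) and a median of 0.18. At an unadjusted p under 0.05, 1 was higher and 0 lower (2.74% and 2.81% of all probe sets). The thalamic median was 0.11 without PianpKO replicate 1 and 0.30 without PianpKO replicate 3. In amygdala, cortex and hippocampus it was -0.08, -0.04 and -0.15. The anterior pituitary list (11 genes) had a median of -0.04, which was 0.09 without control replicate 2 and -0.47 without dim probe sets. *Gh*, growth hormone, was at 11.01 in control replicate 4 and 9.16 in control replicate 2, against 6.92 to 8.30 in PianpKO arrays and 7.38 to 8.04 in the other control arrays. Astrocyte, oligodendrocyte, microglial and endothelial lists had medians of 0.02 to 0.06, with 0 genes lower and 1, *C1qc*, higher at an unadjusted p under 0.05 of 68 measured. Immediate early genes (22 measured) had 0 in either direction, with a median of 0.08.

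Of the thyroid axis genes (14 measured, median 0.01), 0 were higher and 2 lower at an unadjusted p under 0.05 (2.74% and 2.81% of all probe sets). *Crym*, a thyroid hormone-binding protein that was also in the ependymal and tanycyte list, ran from 5.87 to 7.08 in PianpKO arrays (median 6.13), against 6.59 to 7.30 in control arrays (median 7.01). The groups overlapped through PianpKO replicate 3, and the difference was -0.61 (SE 0.22, limma adjusted p = 0.842). *Tshr*, the thyrotropin receptor, had a difference of -0.18. Stress axis genes (20 measured, median 0.02) had 1 higher at that p, *Avp*. Monoamine and histamine genes (22 measured, median 0.00) had 1 higher, the histamine receptor gene *Hrh1* (0.21). Genes of GABA and glutamate transmission (34 measured, median -0.01) had 1 lower, *Gad1*, a GABA-synthesizing enzyme, with a difference of -0.20.

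Chemokines and their receptors (26 measured, median -0.01) had 2 higher, *Ccl28* and *Cxcl1* (0.19), and 1 lower, *Ccr7* (-0.20), at an unadjusted p under 0.05. At that p, 2.74% of all probe sets were higher and 2.81% lower. *Cxcl1*, a neutrophil attractant, had 3.82 to 3.95 in PianpKO arrays (median 3.89), against 3.60 to 3.79 in control arrays (median 3.73), without overlap and near the low end of the scale. Apoptosis genes (19 measured, median -0.01) had *Moap1* (0.32) and *Diablo* (0.16) higher. Among choroid plexus genes (14 measured, median -0.04) the chloride channel gene *Clic6* (-0.54) was lower, and among ependymal and tanycyte genes (21 measured, median -0.01) *Rsph1*, a protein of motile cilia, was lower (-0.25). Hippocampal genes (16 measured, median 0.04) had *Bok* (0.24) higher. Autism-associated genes (26 measured), genes reported to differ between C57BL/6 substrains (10), meningeal genes (15), blood genes (8) and pan-neuronal genes (15) had 0 in either direction, with medians of -0.01, 0.02, 0.10, 0.05 and 0.04.

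Some of the lowest and highest differences of all probe sets rested on single arrays. *Cdhr1*, a cadherin-related protein, was at 4.44 to 5.74 in PianpKO arrays, against 7.56 in control replicate 2 and 4.80 to 5.74 in the other control arrays (difference -0.73, limma adjusted p = 0.895). *Abi3bp*, an extracellular matrix protein, was at 8.10 in the same control array, and its difference was -0.67. *Gm10269* and *Rpl30-ps8*, annotated as pseudogenes, had differences of -0.84 (SE 0.22) and -0.68 (SE 0.19), which are uncertain where near-identical copies share probes. The lncRNA *Gm15738* had 4.70, 4.58, 3.93, 4.94 and 4.38 in PianpKO arrays, against 3.91, 4.07, 3.59, 3.66 and 3.96 in control arrays, with a difference of 0.67 (SE 0.17, limma adjusted p = 0.801).

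**Figure D4:**
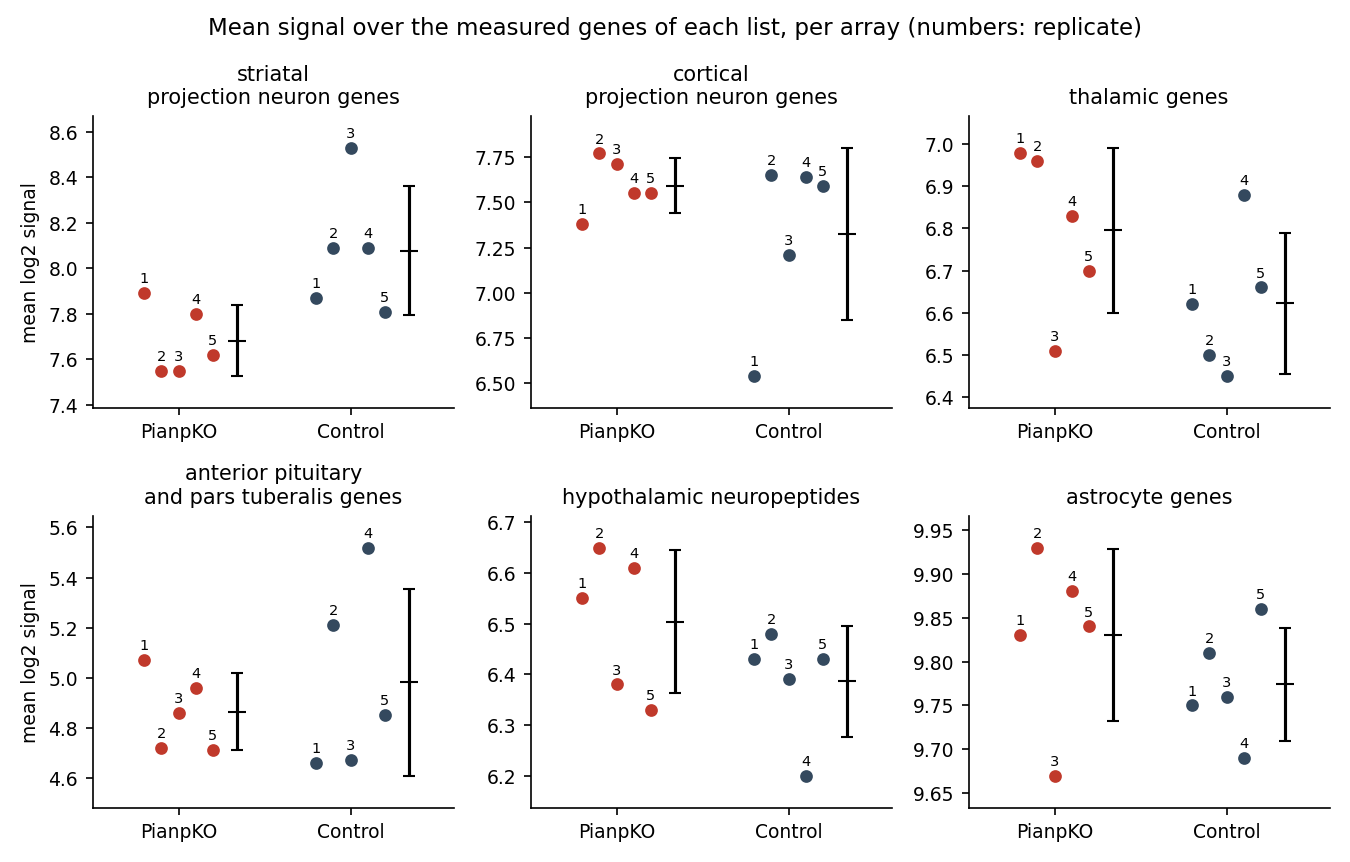
Mean log2 signal over the measured genes of 6 lists (vertical) in each PianpKO and control hypothalamus array; points are arrays labelled by replicate, with the mean ± SD (n = 5 each) beside them. Striatal genes are highest in control replicate 3 (8.53), cortical genes lowest in control replicate 1 (6.54) and pituitary genes highest in control replicate 4 (5.52).

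Whether the hypothalamic difference departed from the mean difference of the other 3 regions was tested over all 39 arrays with the mouse as a random block. At an adjusted p of 0.05, 0 genes departed (0.00%), with a smallest limma adjusted p of 0.898, so no gene's difference was shown to be particular to the hypothalamus. At an unadjusted p under 0.05 there were 1230 (4.84%) and under 0.001 there were 24 (0.0944%). The 5 named genes with the smallest p were *Rph3a*, *Ebf3*, *Rac3*, *Nabp1* and *Uncx*. *Rph3a*, rabphilin, a synaptic vesicle protein, had 10.32, 10.37, 10.35, 10.45 and 10.38 in PianpKO hypothalamus, against 10.17, 10.20, 10.13, 10.27 and 10.30 in control hypothalamus, a difference of 0.16, with -0.08, -0.02 and -0.11 in amygdala, cortex and hippocampus. Its departure was 0.23 (SE 0.05, limma adjusted p = 0.898). *Ebf3*, a helix-loop-helix factor, and *Uncx* had departures of 0.50 (SE 0.11) and 0.51 (SE 0.13). *Pianp*, *Erdr1* and *Fabp5* had departures of -0.02, -0.06 and -0.05, each below its standard error.

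**Figure D5:**
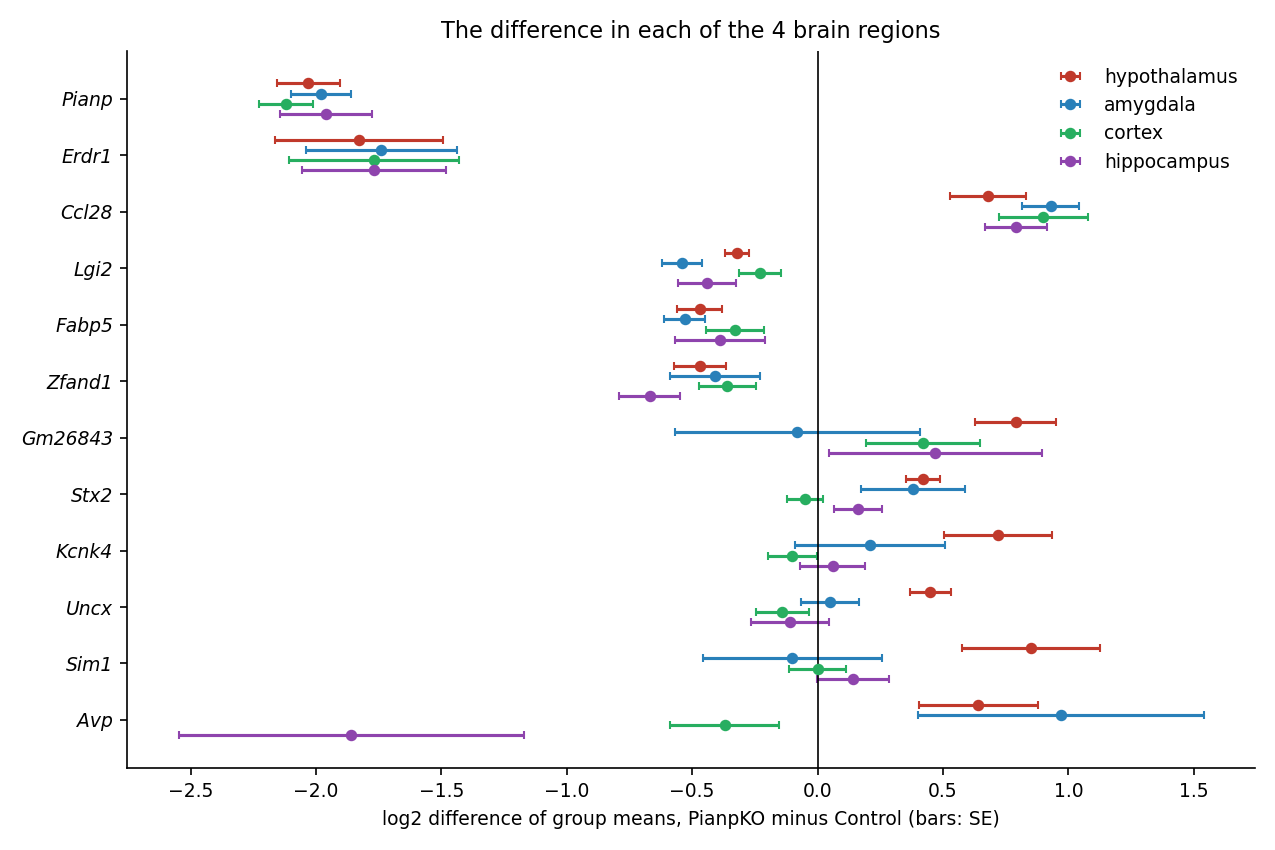
Difference of group means on the log2 scale (PianpKO minus control, horizontal; bars are the SE from the group SDs) for 12 genes in the hypothalamus, amygdala, cortex and hippocampus (n = 5 per group, 4 for control amygdala). *Pianp*, *Erdr1*, *Ccl28*, *Lgi2*, *Fabp5* and *Zfand1* have 1 sign in all 4 regions, while *Sim1*, *Uncx* and *Kcnk4* lie between -0.14 and 0.21 outside the hypothalamus. *Sim1* and *Uncx* had low signal in cortex and hippocampus (group means of 3.69 to 4.24, array median 4.62).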

How the data were processed

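RNA of 39 punches was hybridized to GeneChip Mouse Gene 2.0 ST arrays, and the 10 hypothalamus arrays were grouped by their labels. The authors used a custom chip definition (version 21, 1 probe set per Entrez gene) and quantile normalization, and the submitters' notes also name RMA. The deposited values are log2 normalized signal with equal array medians (4.62), no detection calls and no scan dates. Precision is limited by the number of arrays. Of 25429 probe sets, 24675 were named through the platform annotation and matched to RefSeq (GRCm38.p6), which was used for names and neighbors.

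The groups were compared with limma 3.58.1 in R 4.3.3 (lmFit, eBayes, Benjamini-Hochberg over all probe sets), in place of the ANOVA of the methods, which was an alternative. The script was tested on simulated data. No probe set was filtered. The departure of the hypothalamus from the other regions used all 39 arrays with the mouse as a random block (statmod 1.5.0, correlation 0.106). Numbers in the labels were taken as mouse numbers. The 32 gene lists and the named genes (genes of the GABAB receptor and those the study followed up, genes at an unadjusted p under 0.001, the 10 highest and 10 lowest differences, up to 4 members of each list, the leading 5 departures) were chosen with earlier results of these data known. *Oxt*, *Pilra*, *Adam10*, *App*, *Cck* and other list members were named after their values were seen. Alternatives were array centering, renewed quantile normalization of the 10 arrays, leaving out dim probe sets, trend and robust estimation, array weights, all 8 groups with and without the mouse block, the replicate number as a block, and leaving out each array.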

Additional observations from a re-analysis of the deposited data

Results flagged for a closer look

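In 10 of 164 groups of 5 arrays over the 82 genes followed, 1 array lay far from the other 4 by Dixon's test; chance alone gives about 1 in 20. In PianpKO hypothalamus these were *Erdr1* at 8.39 in replicate 2 (others 9.42 to 9.60), *Zfp605* at 4.67 in replicate 1 (4.74 to 4.77), *Gm26843* at 6.22 in replicate 5 (5.88 to 5.90), *Tbc1d10a* at 5.87 in replicate 3 (5.60 to 5.67), *Gpr6* at 5.88 in replicate 3 (6.39 to 6.53) and *Rgs16* at 8.13 in replicate 5 (7.70 to 7.80). In control hypothalamus they were *Olfr1303* at 5.85 in replicate 5 (others 4.75 to 4.88), *Tshr* at 4.25 in replicate 5 (3.93 to 4.02), *Slc17a7* at 5.45 in replicate 1 (9.08 to 10.25) and *Abi3bp* at 8.10 in replicate 2 (4.56 to 5.34). *Olfr1303*, an olfactory receptor gene, would have had groups without overlap but for that array: its difference was 0.93, and 1.13 without control replicate 5.

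*Rph3a* was higher in all PianpKO than in all control arrays of the hypothalamus (difference 0.16) and lower in all PianpKO than in all control arrays of the hippocampus (-0.11). The difference between these 2 regions alone was not tested.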

How the results depend on the processing

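*Pianp* was the 1 gene past an adjusted p of 0.05 in the hypothalamus alone under each alternative run there, with differences of -2.12 to -1.96 when single arrays were left out; fits over all 8 groups gave 2 genes (without and with the mouse as a block, and with the ANOVA of the methods), *Pianp* and *Erdr1*. At the study's thresholds the count of 3 was 2 with the ANOVA of the methods within the region, 7, 6 and 5 in the fits over all 8 groups (each of these 4 without *Gm26843*), 5 with the replicate block, and 3 to 7 when single arrays were left out: 6 without PianpKO replicate 1, 7 without control replicate 5, and 5 without PianpKO replicate 3 or control replicates 1, 2 or 3. At an unadjusted p under 0.001 the count of 29 was 50, 54 and 46 in the fits over all 8 groups, of which 13 were among the 29 in each. It was 17 to 48 when single arrays were left out (17 without PianpKO replicate 4, 48 without control replicate 5). Without dim probe sets it was 20, of which 19 were among the 29. The count of 14 lower striatal genes was 9 with the ANOVA of the methods within the region and 7 over all 8 groups. The median of the pituitary list, -0.04, was -0.47 without dim probe sets. Departure from the other regions stayed at 0 genes under each alternative.

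Of 1708 pairs of a followed gene and an alternative, 0 reversed and 3 gained the call, all *Erdr1* in the fits over all 8 groups. Deviations of same-numbered PianpKO and control arrays from their group means correlated at 0.02 to 0.23. Differently numbered arrays were not compared in this way, so these values cannot decide whether replicate numbers pair the arrays. With the replicate block, 29 genes had an unadjusted p under 0.001, 21 higher and 8 lower, 11 of them among the 29 of the report, and *Pianp* stayed at -2.04 and the 1 gene past the adjusted p.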

Other observations

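Over all probe sets, 2.74% were higher and 2.81% lower in PianpKO hypothalamus at an unadjusted p under 0.05. Of 3056 lncRNA genes, 62 were higher and 65 lower (2.03% and 2.13%), and of 327 transcribed pseudogenes 8 and 13 (2.45% and 3.98%). Of 534 miRNA genes, 26 were higher and 1 lower in PianpKO hypothalamus at an unadjusted p under 0.05 (4.87% and 0.187%), with a median difference of 0.01, and 0 passed an adjusted p of 0.05 in limma. The count of higher ones was 15 without PianpKO replicate 5 and 33 without PianpKO replicate 2; with control replicates 2, 3 and 5 alone, 26 were higher and 4 lower. Counts in the other regions were 10 higher and 6 lower for amygdala, 36 and 28 for cortex, and 10 and 15 for hippocampus. Of 107 snoRNA genes, 8 were higher (7.48%) and 0 lower, with a median of 0.11, and 5 and 1 with control replicates 2, 3 and 5 alone. Among them were *Snora47*, with 10.64, 10.68, 10.37, 10.26 and 10.12 in PianpKO arrays, against 10.07, 10.22, 10.05, 9.94 and 10.05 in control arrays, and *Snord65*, where PianpKO replicate 4 (9.09) was highest and PianpKO replicate 5 (7.38) lowest of all 10 arrays. The snoRNA count was 27 without PianpKO replicate 5 and 4 without PianpKO replicate 4. In the amygdala, cortex and hippocampus 25, 23 and 10 snoRNA genes were higher and 0, 1 and 2 lower.

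Of 510 probe sets annotated as pseudogenes, 6 were higher and 47 lower at an unadjusted p under 0.05 (1.18% and 9.22%, against 2.74% and 2.81% of all probe sets), with a median of -0.05. The lower count was 73 without control replicate 5 and 28 with control replicates 2, 3 and 5 alone. More pseudogenes were lower than higher in each other region too: 18 higher and 31 lower in amygdala, 28 and 59 in cortex, and 7 and 31 in hippocampus. By symbol, 7 of the 47 are named after a ribosomal protein gene, against 40 of the 510, and this larger share was not tested. Among the lowest differences, *Rps3a2* was at 4.90, 4.47, 4.84, 4.11 and 4.46 in PianpKO arrays, against 6.35, 4.84, 5.26, 5.55 and 4.79 in control arrays. Probes of pseudogenes can bind transcripts of the parent genes, whose part here was not tested.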
